A study of Mus musculus with 16 samples.

Results

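Cornified envelope precursors are the proteins that keratinocytes crosslink beneath the plasma membrane when they end their life as a barrier cell. 7 genes of this class were followed here, out of 22579 genes with counts: Ivl (involucrin), Sprr1a, Sprr1b, Sprr2h and Sprr2a1 (small proline-rich proteins), Cnfn (cornifelin) and Lce3c (late cornified envelope 3C). They were chosen by name from a table of differential translation, with earlier results of these data known, and each gene is represented by the transcript selected on the most Ribo-seq counts summed over 8 libraries. RNA-seq and ribosome profiling (Ribo-seq, which counts the mRNA fragments, or footprints, that ribosomes protect) were made from the same lysates of cells sorted from hair follicle stem cell (HFSC) organoids. The organoids, called 3D–3C cultures, were grown in Matrigel for 2 weeks from epidermal cells of C57BL/6J mice of both sexes in the resting phase of the hair cycle. Cells positive for α6 integrin were sorted into CD34-negative progenitors and CD34-positive HFSCs, from cultures left untreated or given N1-acetylspermidine (N1-AcSpd) for the last 72 h. Each of the 4 groups had 2 libraries per assay, and replicates 1 and 2 named 2 donor mice, so that p-values measure the spread between these few samples.

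Involucrin is an early scaffold of the envelope, the small proline-rich proteins are flexible cross-bridges between other envelope proteins, and the late cornified envelope proteins are added as the cell matures. Transglutaminases join them through glutamine and lysine side chains. Except for Cnfn, the genes lie in the epidermal differentiation complex, a cluster of barrier genes that are switched on when basal keratinocytes move up through the spinous and granular layers. HFSCs and their outer root sheath progeny sit in the basal compartment, where these genes are known to be low.

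The total of counts was 21601141 to 31505435 per RNA-seq library and 34467 to 267921 per Ribo-seq library, and the shallowest Ribo-seq library was replicate 1 of the untreated progenitors. Where a Ribo-seq library held no footprint of a gene, 3 counts remain possible, which is 0.00112% to 0.0087% of a library and covers counting error only. In RNA-seq the sort was visible in Cd34, at 2.35 to 5.36 CPM (counts relative to the TMM-scaled library size) in the 4 progenitor libraries and 67.4 to 89.9 CPM in the 4 HFSC libraries. Krt5 and Krt14, keratins of basal cells, stood at 14600 to 21514 CPM in all libraries, while Lor and Flg, which mark granular cells, stayed at or below 3.12 and 0.588 CPM. The summed level of 5 immune markers was at most 0.0379 CPM, of 4 melanocyte markers at most 2.12 CPM, of 6 fibroblast markers at most 13.6 CPM, of 3 endothelial markers at most 1.62 CPM, of 6 inner root sheath markers at most 2.93 CPM and of 3 hair cortex markers at most 17.6 CPM. Melanocyte markers summed to 0.826 to 1.03 CPM in untreated and 1.76 to 2.12 CPM in treated progenitors, and fibroblast markers to 1.07 to 5.25 and 1.45 to 13.6 CPM, and the part of such cells in the results was not tested. In a sorted population, fewer cells expressing a gene and less RNA per cell cannot be told apart.

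All 7 genes are given by the build GRCm38. Ivl (ENSMUSG00000049128) lies at chr3:92570902-92573735, Sprr1a (ENSMUSG00000050359) at chr3:92483952-92485895 and Sprr1b (ENSMUSG00000048455) at chr3:92436809-92438789, all on the minus strand. Sprr2h (ENSMUSG00000046259) at chr3:92385685-92387324, Sprr2a1 (ENSMUSG00000078664) at chr3:92215799-92221911 and Lce3c (ENSMUSG00000045475) at chr3:92944486-92945733 are on the plus strand. These 6 genes have 2 exons, and in each of them the coding sequence lies within 1 exon. Cnfn (ENSMUSG00000063651) stands apart on chromosome 7, at chr7:25367620-25369703 on the minus strand, with 5 exons.

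The promoters of all 7 genes are shown because 6 of them had higher RNA levels in treated than in untreated progenitors while Sprr2a1 did not, and the 6 do not share the motifs searched. Each line runs 5′ to 3′ in the direction of the gene, from RefSeq's table for GRCm38.p6. It ends at the base before the RefSeq start, except that in Sprr1a, Sprr1b and Sprr2a1 the last 14, 10 and 36 bases before that start are not printed, because the transcript analysed here starts further upstream. Capitals mark the AP-1 motif TGANTCA and the TATA motif TATAAA.
Ivl, chr3:92573736-92573855 (- strand): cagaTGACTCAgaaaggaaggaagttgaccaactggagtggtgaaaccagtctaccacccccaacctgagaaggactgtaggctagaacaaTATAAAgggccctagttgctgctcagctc
Sprr1a, chr3:92485896-92486001 (- strand): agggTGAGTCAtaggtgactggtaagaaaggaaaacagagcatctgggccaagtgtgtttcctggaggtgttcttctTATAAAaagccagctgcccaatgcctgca
Sprr1b, chr3:92438790-92438899 (- strand): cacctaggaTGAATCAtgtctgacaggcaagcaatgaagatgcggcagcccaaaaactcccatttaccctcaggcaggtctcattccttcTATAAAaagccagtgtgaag
Sprr2h, chr3:92385565-92385684 (+ strand): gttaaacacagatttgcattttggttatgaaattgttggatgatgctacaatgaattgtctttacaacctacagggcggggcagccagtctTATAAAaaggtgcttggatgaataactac
Sprr2a1, chr3:92215715-92215798 (+ strand): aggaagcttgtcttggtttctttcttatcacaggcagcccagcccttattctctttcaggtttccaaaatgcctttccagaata
Cnfn, chr7:25369725-25369844 (- strand): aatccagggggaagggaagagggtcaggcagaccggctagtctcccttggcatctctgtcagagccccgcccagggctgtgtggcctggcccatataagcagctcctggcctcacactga
Lce3c, chr3:92944366-92944485 (+ strand): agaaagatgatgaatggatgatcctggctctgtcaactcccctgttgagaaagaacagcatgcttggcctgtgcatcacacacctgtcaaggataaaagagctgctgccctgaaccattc

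Within 250 bases before to 50 bases after the RefSeq start, searched on both strands, TGANTCA was found in 4 of the 7 genes (Ivl, Sprr1a, Sprr1b and Sprr2h) and in 7.81% of 32851 promoters of the same length. Relative to the RefSeq start, it began at -116 in Ivl, at -146 and -116 in Sprr1a, at -111 in Sprr1b and at -198 in Sprr2h, and the sites at -146 and -198 lie upstream of the printed bases. The same 4 genes held TATAAA, against 13.6% of all promoters. Cnfn and Lce3c, the genes of the 7 with the largest fold changes in treated progenitors, held neither motif, and nor did Sprr2a1. The annotated starts of Sprr2a1 and its copy Sprr2a2 lie close together, at -357936 and -357815 bases from that of Ivl. Which starts these cells used was not tested. The AP-1 motif was also held by 6 of 10 other Sprr genes and by 0 of 19 other Lce genes with a promoter given. The letters CACCC were held by 5 of 7 genes and 57.5% of all promoters, and in Sprr1a a match to them overlaps the AP-1 motif at -116. A match describes the letters only, and no binding was measured.

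Coding sequences are shown where they bear on what can be counted. A footprint of about the length of the 28-base word used here can be placed at 1 site only if its bases occur nowhere else. Places within the same gene were counted too, such as the tandem repeats of Sprr1b, and a word that recurs only there still belongs to that gene. The share of 28-base words of the coding sequence that occurred in at most 1 place of the genome was 100% in Cnfn, 96.7% in Ivl, 88.6% in Sprr1a, 69.4% in Sprr1b, 48.1% in Sprr2h, 12.7% in Lce3c and 0% in Sprr2a1. Sprr2a1 and its copy Sprr2a2 were identical in all 249 coding bases, and Sprr2a3 differed from them by G63A, G159T and A192T, with positions counted from the first base of the start codon and the Sprr2a1 base given first. These sequences are without the stop codon, and capitals mark the 3 differing bases.
Sprr2a1, chr3:92219092-92219340 (+ strand): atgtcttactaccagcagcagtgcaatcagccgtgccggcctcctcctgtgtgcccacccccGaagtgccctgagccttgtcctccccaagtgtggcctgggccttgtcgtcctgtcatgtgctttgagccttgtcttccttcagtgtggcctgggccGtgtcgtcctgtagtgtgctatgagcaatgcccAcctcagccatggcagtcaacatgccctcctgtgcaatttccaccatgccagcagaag
Sprr2a3, chr3:92288588-92288836 (+ strand): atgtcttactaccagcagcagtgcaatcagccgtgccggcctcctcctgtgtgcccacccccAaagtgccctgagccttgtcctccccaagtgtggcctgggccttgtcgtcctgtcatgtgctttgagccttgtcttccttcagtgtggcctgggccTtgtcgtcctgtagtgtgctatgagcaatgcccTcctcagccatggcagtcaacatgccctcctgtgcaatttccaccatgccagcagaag
Sprr1b is built of tandem repeats, and capitals mark 6 exact copies of a 24-base word in this stretch of its coding sequence.
Sprr1b, chr3:92437242-92437433 (- strand): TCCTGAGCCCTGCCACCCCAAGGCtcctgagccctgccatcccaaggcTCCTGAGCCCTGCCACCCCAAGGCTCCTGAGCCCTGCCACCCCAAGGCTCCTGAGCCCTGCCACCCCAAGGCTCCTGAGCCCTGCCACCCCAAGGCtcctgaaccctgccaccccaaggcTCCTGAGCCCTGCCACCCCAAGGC

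**Figure D1:**
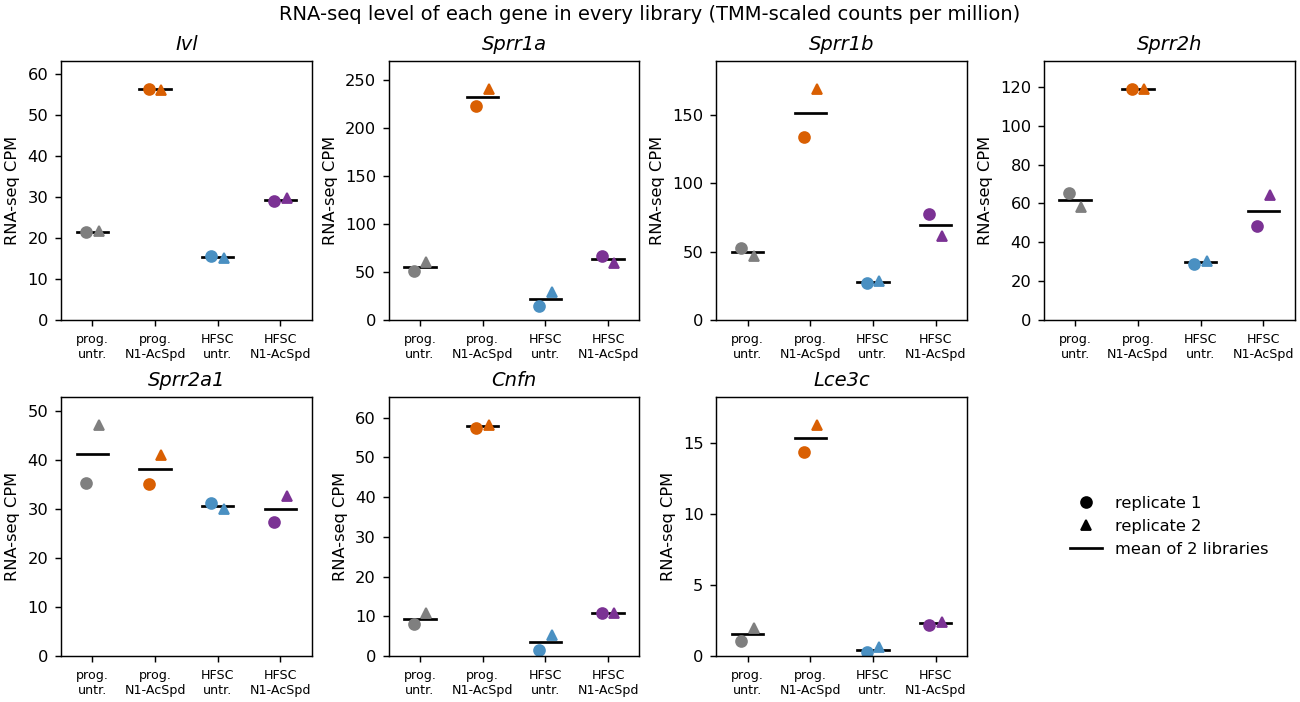
RNA-seq level of each gene in CPM (vertical axes from 0, linear, different per gene) in every library, with circles for replicate 1, triangles for replicate 2 and a bar at the mean of the 2 libraries of each group. In 6 genes both N1-AcSpd progenitor libraries stand above all other libraries, and the share of all genes with this pattern is not given here. In Sprr2a1 these 2 libraries lie at 35.1 and 41.1 CPM among 35.3 and 47.2 CPM in untreated progenitors.

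The scaffold gene Ivl was at 21.3 and 21.7 CPM in the 2 untreated progenitor libraries and at 56.3 and 56 CPM in the N1-AcSpd progenitor libraries. In untreated HFSCs it was at 15.6 and 15 CPM, and in N1-AcSpd HFSCs at 29 and 29.6 CPM. The 4 groups, of 2 libraries each, do not overlap, and the share of all genes with such groups is not given here. The order ran from treated progenitors through treated HFSCs and untreated progenitors to untreated HFSCs.

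Sprr1a and Sprr1b, which code for cross-bridge proteins, were highest in treated progenitors and lowest in untreated HFSCs. Sprr1a was at 50.7 and 60 CPM in untreated progenitors, 223 and 241 CPM in treated progenitors, 14.1 and 28.8 CPM in untreated HFSCs and 66.9 and 59.1 CPM in treated HFSCs. Sprr1b was at 52.7 and 46.6 CPM in untreated progenitors, 134 and 169 CPM in treated progenitors, 26.6 and 28.5 CPM in untreated HFSCs and 77.5 and 61.5 CPM in treated HFSCs. In Sprr1a the treated HFSCs and untreated progenitors overlap, with the ranges 59.1 to 66.9 and 50.7 to 60 CPM. In Sprr1b all 4 treated libraries stand above all 4 untreated ones.

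The Sprr2 genes, a larger branch of the same family, split. Sprr2h was at 65.5 and 58 CPM in untreated progenitors, 119 and 119 CPM in treated progenitors, 29 and 30.4 CPM in untreated HFSCs and 48.2 and 64.1 CPM in treated HFSCs. Sprr2a1 was at 35.3 and 47.2 CPM in untreated progenitors, 35.1 and 41.1 CPM in treated progenitors, 31.3 and 30.1 CPM in untreated HFSCs and 27.3 and 32.6 CPM in treated HFSCs. Its treated and untreated libraries overlap in each cell type. How reads shared by the identical copies were assigned is not given in the sources used here, so the split among copies is uncertain; Sprr2a1, Sprr2a2 and Sprr2a3 summed to 178 and 196 CPM in untreated and 179 and 192 CPM in treated progenitors, and to 152 and 137 CPM in untreated and 146 and 175 CPM in treated HFSCs.

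Cnfn, a membrane-associated envelope component, and Lce3c, a late precursor, had their highest levels in treated progenitors as well. Cnfn was at 7.97 and 10.8 CPM in untreated progenitors, 57.4 and 58.2 CPM in treated progenitors, 1.59 and 5.3 CPM in untreated HFSCs and 10.8 and 10.8 CPM in treated HFSCs. Lce3c was at 1.07 and 1.98 CPM in untreated progenitors, 14.4 and 16.3 CPM in treated progenitors, 0.28 and 0.606 CPM in untreated HFSCs and 2.21 and 2.4 CPM in treated HFSCs. The untreated HFSC libraries of Cnfn differed more than 3-fold between donors. All 4 treated libraries stood above all 4 untreated ones for Ivl, Sprr1b and Lce3c, or 3 of the 7 genes, as they did for 3.95% of the 14205 genes tested.

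Levels of different genes can be set side by side only per length of coding sequence (CPM per kb, mean ± SD, n = 2). In untreated progenitors these levels were 191 ± 16.3 for Sprr2h, 166 ± 33.8 for Sprr2a1, 128 ± 15.3 for Sprr1a, 108 ± 9.37 for Sprr1b, 25.2 ± 5.4 for Cnfn, 15.3 ± 0.159 for Ivl and 5.19 ± 2.18 for Lce3c. Neighbours among the first 4 lie within their combined SDs. With N1-AcSpd Sprr1a led at 537 ± 30.7, followed by Sprr2h at 368 ± 1.06 and Sprr1b at 330 ± 52.8, which lie within their SDs of each other. Cnfn at 155 ± 1.48 and Sprr2a1 at 153 ± 17.1 did not differ beyond their spread, and Lce3c at 52.3 ± 4.55 and Ivl at 40 ± 0.178 came last.

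**Figure D2:**
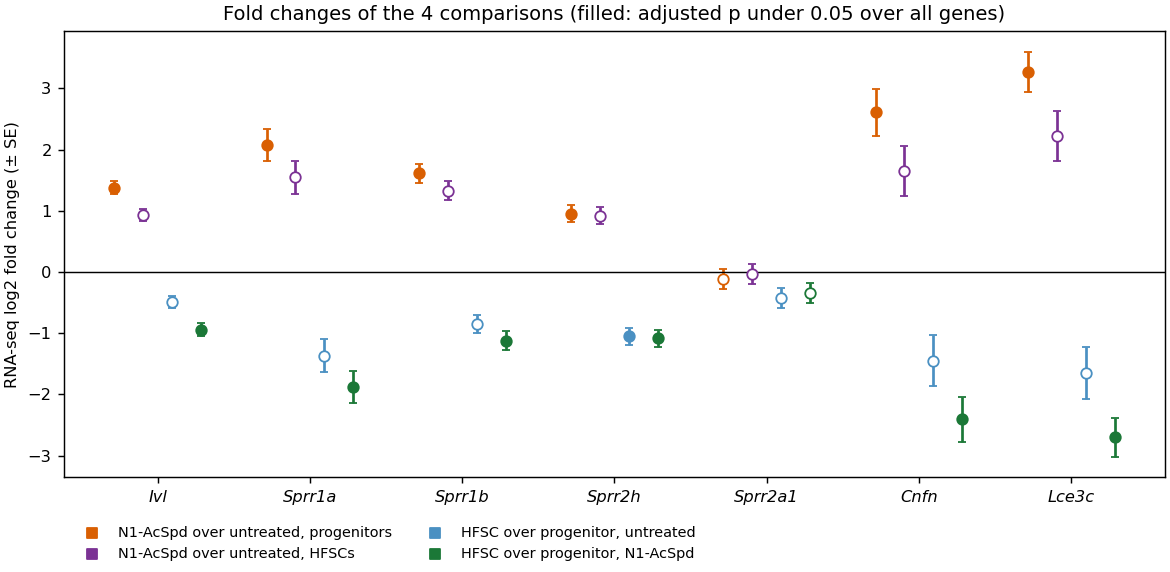
RNA-seq log2 fold change with its standard error (vertical axis, from edgeR) of each gene in the 4 comparisons, with filled points where the adjusted p over all genes was under 0.05. The progenitor treatment comparison is filled for 6 genes, the HFSC treatment comparison for none, and Sprr2a1 lies between -0.43 and -0.04.

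Treatment of progenitors was the first comparison, of 2 N1-AcSpd libraries against 2 untreated libraries in a quasi-likelihood fit of all 8 RNA-seq libraries by edgeR, adjusted over all genes by the method of Benjamini and Hochberg. 6 of the 7 genes rose, against 0.218% of the 14205 genes tested (31 genes, and 3 more fell). The median log2 fold change was 1.61 over the 7 genes and -0.01 over all genes. Lce3c rose 9.65-fold (log2 3.27, SE 0.333, adjusted p = 0.0257), Cnfn 6.12-fold (log2 2.61, SE 0.38, adjusted p = 0.0486), and Sprr1a 4.19-fold (log2 2.07, SE 0.263, adjusted p = 0.0342). Smaller rises came in Sprr1b, which changed 3.05-fold (log2 1.61, SE 0.152, adjusted p = 0.0244), Ivl, which changed 2.61-fold (log2 1.38, SE 0.101, adjusted p = 0.0054), and Sprr2h, which changed 1.93-fold (log2 0.95, SE 0.14, adjusted p = 0.048). Ivl had the smallest p of all genes tested. For Sprr2a1 the log2 fold change was -0.12 (SE 0.162, adjusted p = 0.912), which does not show that it stayed level.

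Each donor gave the same direction for the 6 genes, with Lce3c 13.4-fold and 8.24-fold higher in donors 1 and 2, and Cnfn 7.2-fold and 5.38-fold. With the donor as a replicate block, Ivl (adjusted p = 0.0303), Lce3c (0.0405) and Sprr1b (0.0405) passed in edgeR's test, while Sprr1a (0.0607), Cnfn (0.076) and Sprr2h (0.11) did not. That block uses the labelled replicate numbers, and with those of N1-AcSpd HFSCs exchanged, a setting chosen after seeing the data, all 6 passed in edgeR, with the largest adjusted p = 0.00168 in Sprr2h. Over all 14205 genes the exchanged block called 446, and the labelled block 7. No gene of the 7 passed in edgeR without either of the untreated progenitor libraries, 2 passed without N1-AcSpd progenitor replicate 1 and 1 without replicate 2. With the counts summed over all transcripts of a gene 1 passed, which was 1 of all 14620 genes. With DESeq2 6 passed, where 174 of 13103 genes with an adjusted p did, in either direction.

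In HFSCs, N1-AcSpd gave no adjusted call among the 7 genes in edgeR's test, nor in any gene (0% of 14205). At an unadjusted p under 0.05, 6 of 7 genes were higher, against 4.31% of all genes. DESeq2 gave 6 adjusted calls among the 7, and 125 in either direction among the 12001 genes it gave an adjusted p. The edgeR log2 fold changes were 2.22 for Lce3c (SE 0.413, adjusted p = 0.18), 1.65 for Cnfn (SE 0.412, adjusted p = 0.313) and 1.55 for Sprr1a (SE 0.269, adjusted p = 0.185). They were 1.33 for Sprr1b (SE 0.153, adjusted p = 0.0561), 0.93 for Ivl (SE 0.102, adjusted p = 0.0561) and 0.92 for Sprr2h (SE 0.142, adjusted p = 0.177), and -0.04 for Sprr2a1 (SE 0.163, adjusted p = 0.984). The median over the 7 genes was 1.33, and the donors differed most in Cnfn, with ratios of 6.8 and 2.03. Without minimum count 5 of the 7 passed, where 38 of all 16024 genes did. With only the 4 HFSC libraries 1 passed, where 5 of all 14253 genes did.

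Whether the treatment differed between the cell types was tested by the interaction term, where 0 of the 7 genes passed in edgeR or DESeq2 (0% of all genes in edgeR). At an unadjusted p under 0.05 there was 1, Ivl, with a log2 difference of HFSC minus progenitor effect of -0.45 (SE 0.143, adjusted p = 1 from edgeR), against 0.831% of all genes. For Lce3c the difference was -1.05 (SE 0.53), for Cnfn -0.96 (SE 0.56), for Sprr1a -0.51 (SE 0.376), for Sprr1b -0.28 (SE 0.216), for Sprr2h -0.03 (SE 0.199) and for Sprr2a1 0.08 (SE 0.23). The responses of the 2 cell types were thus not shown to differ. The comparisons by treatment and by cell type share libraries and do not support each other.

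HFSCs stood below progenitors. Among untreated cells, Sprr2h was 2.08-fold lower (log2 -1.05, SE 0.142, adjusted p = 0.0359 from edgeR, 0.0858 with the replicate block) and was the only one of the 7 to pass, against 0.0352% of all genes that passed as lower. At an unadjusted p under 0.05, 7 of 7 were lower, against 4.37% of all genes, with log2 fold changes from -0.43 (Sprr2a1) to -1.65 (Lce3c). Without untreated HFSC replicate 2, 2 genes passed in edgeR; without untreated HFSC replicate 1 or any of the 4 progenitor libraries, 0 passed. DESeq2 called 5 of the 7, and 268 of the 12828 genes it gave an adjusted p, in either direction. No minimum count gave 4 in edgeR, and 168 of all 16024 genes.

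Among treated cells 6 of 7 were lower in HFSCs, against 0.444% of all genes that passed as lower, and the median log2 fold change was -1.12. Lce3c was 6.48-fold lower (log2 -2.70, SE 0.317, adjusted p = 0.0138) and Cnfn 5.33-fold lower (log2 -2.41, SE 0.375, adjusted p = 0.0362), both from edgeR. Sprr1a was 3.68-fold lower (log2 -1.88, SE 0.262, adjusted p = 0.0248), Sprr1b 2.18-fold (log2 -1.12, SE 0.151, adjusted p = 0.0201), Sprr2h 2.12-fold (log2 -1.08, SE 0.14, adjusted p = 0.0173) and Ivl 1.91-fold (log2 -0.94, SE 0.0996, adjusted p = 0.0112). Sprr2a1 gave -0.34 (SE 0.163, adjusted p = 0.486). With the replicate block Cnfn (adjusted p = 0.0552 from edgeR) and Sprr1b (0.051) no longer passed. Without N1-AcSpd progenitor replicate 1 or N1-AcSpd HFSC replicate 1 none of the 7 passed in edgeR; without N1-AcSpd progenitor replicate 2 there was 1, and without N1-AcSpd HFSC replicate 2 there were 2. With only the 4 treated libraries 3 passed, where 27 of all 14232 genes did.

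Of 11 HFSC markers only Krt15, a keratin, passed in treated progenitors, where it fell (log2 -0.84, SE 0.115, adjusted p = 0.0427 from edgeR, 0.076 with the replicate block). Its level in N1-AcSpd HFSCs was 309 to 346 CPM against 683 to 764 CPM in untreated HFSCs. The sort marker Cd34 stood at 2.4 to 5.36 CPM in treated and 2.35 to 3.57 CPM in untreated progenitors. In HFSCs Cd34 was at 68.2 to 89.9 CPM with N1-AcSpd and 67.4 to 86.8 CPM untreated. Krt1, a spinous keratin, stood at 63.4 to 119 CPM in treated and 21.2 to 30.3 CPM in untreated progenitors. Whether a shift in cell make-up took part in the 7 genes was not tested.

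Footprints were too few to show these differences gene by gene. Ivl had 1 and 20 footprints in untreated progenitors and 9 and 5 in treated ones, then 0 and 4 in untreated and 7 and 4 in treated HFSCs. Sprr1a had 3 and 11 in untreated and 26 and 8 in treated progenitors, and 0 and 5 in untreated and 8 and 1 in treated HFSCs. Sprr1b had 0 and 22 in untreated and 25 and 7 in treated progenitors, and 0 and 7 in untreated and 11 and 0 in treated HFSCs. These counts are not scaled by depth, and the library with the fewest counts, untreated progenitor replicate 1, gave 0 or few for each.

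Cnfn had the most footprints of the 7, with 0 and 29 in untreated and 33 and 13 in treated progenitors, and 0 and 3 in untreated and 3 and 9 in treated HFSCs. Sprr2h had 4, all in untreated progenitor replicate 2, and Sprr2a1 and Lce3c had 0 in all 8 libraries. 4 of the 7 genes therefore had the mean of at least 1 count needed for testing.

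None of the 4 passed in edgeR in Ribo-seq, between cell types or treatments, and DESeq2 called none of those it gave an adjusted p. The share of all 8431 genes called was 0.0237% between untreated cell types, 0.0356% between treated cell types, 0.0237% for treatment in progenitors, 0% for treatment in HFSCs and 0% for the interaction. In the same order, 1, 3, 3, 1 and 0 of the 4 genes had an unadjusted p under 0.05, against 2.66%, 3.45%, 2.8%, 3.55% and 2.66% of all genes, with Cnfn in each count above 0. Averaged over treatments, 0.154% of genes passed between cell types and averaged over cell types 0.083% passed for treatment. At an unadjusted p under 0.05, 3 of 4 were lower in HFSCs (Sprr1a, Sprr1b and Cnfn), against 4.14% of all genes in either direction. With N1-AcSpd 2 of 4 were higher (Sprr1a and Cnfn), against 4.84% in either direction. For Cnfn the log2 fold change of HFSCs over progenitors was -1.71 (SE 0.648, adjusted p = 0.0552 from edgeR, 0.0482 with the replicate block), and of N1-AcSpd over untreated 1.55 (SE 0.648, adjusted p = 0.319). In Sprr1a these were -1.38 (SE 0.667) and 1.11 (SE 0.667), in Sprr1b -1.21 (SE 0.623) and 0.91 (SE 0.623) and in Ivl -0.86 (SE 0.732) and 0.72 (SE 0.732), each in the RNA-seq direction.

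Translational efficiency, footprints per message, was tested as the interaction of assay and group in a fit of both assays. None of the 4 genes passed in edgeR, and 0% of all genes passed in any of the 6 comparisons. Within single groups, no gene of the 4 had an unadjusted p under 0.05, against 5.24% of all genes between untreated and 6.24% between treated cell types, and 6.1% for treatment in progenitors and 6.87% in HFSCs. At an unadjusted p under 0.05, 0 of 4 moved between cell types (6.01% of all genes) and 0 of 4 with treatment (7.37%), each averaged over the other factor. The log2 differences with N1-AcSpd averaged over cell types lay between -0.44 (Sprr1b, SE 0.636) and -0.27 (Ivl, SE 0.519), with standard errors larger than the differences. A change in efficiency was not detectable at this depth. Sprr2h entered 2 of these fits on its 4 footprints from 1 library, with an unadjusted p under 0.05 for treatment in progenitors, and no fold is given.

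**Figure D3:**
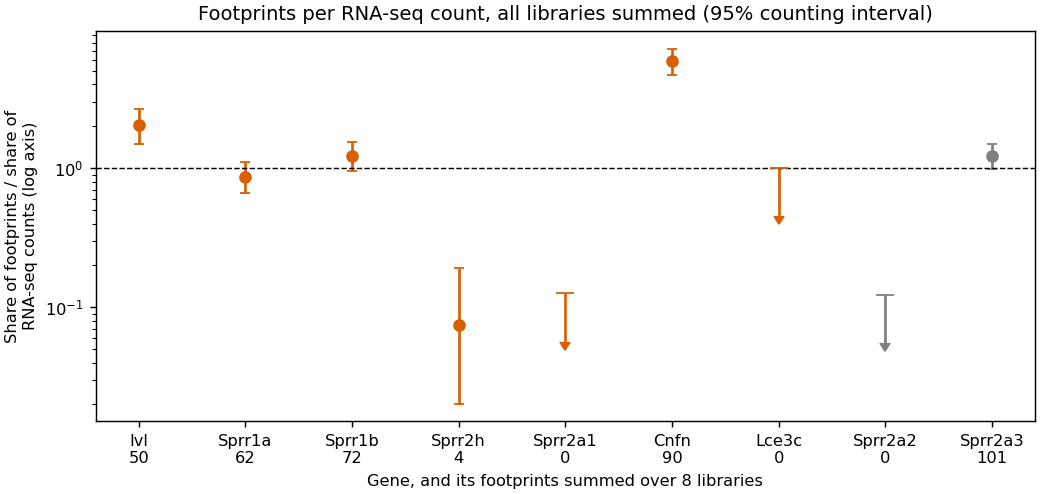
Share of all footprints over share of all RNA-seq counts, summed over 8 libraries (log axis), with 95% Poisson counting intervals, for the 7 genes in orange and the copies Sprr2a2 and Sprr2a3 in grey, with footprint totals under the names and arrows for genes at 0. The dashed line is the median of 10641 genes, 0.996, and Cnfn at 5.85 lies above it while Sprr2h at 0.0745 lies below.

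The share of footprints over the share of RNA-seq counts, over all libraries, ranked the genes differently from their RNA. It is a description, since the footprint total also chose the transcript, and its 95% Poisson intervals cover counting error only. Cnfn stood at 5.85 (4.7 to 7.19), above 99.3% of 10641 genes with at least 500 RNA-seq counts, and Ivl at 2.03 (1.5 to 2.67). Sprr1b at 1.22 (0.955 to 1.54) and Sprr1a at 0.868 (0.665 to 1.11) were near the median of 0.996. Sprr2h stood at 0.0745 (0.0203 to 0.191), with 4 footprints where the median ratio gives 53.5.

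For Sprr2a1 the 0 footprints allow, by counting error alone, a ratio of up to 0.126, where the median ratio gives 29.2 footprints. Both values assume that footprints could be assigned to Sprr2a1, although 0% of its 28-base words occur in at most 1 place. They therefore set no limit on its ribosome load. Of the 5191 genes with at least as many RNA-seq counts 81 (1.56%) also had 0. For Lce3c the median ratio gives 3.65 footprints, so that 0 is within counting error. Sprr2a3, the copy with 3 differing bases and with 36.5% of its 28-base words in at most 1 place, had 101 footprints, while Sprr2a2 had 0 like Sprr2a1. The share of such words was 0% in Sprr2a1 and Sprr2a2, both with a ratio of 0, and 36.5% in Sprr2a3, with a ratio of 1.22. It was 48.1% in Sprr2h, with a ratio of 0.0745 on 4 footprints from 1 library, and 100% in Cnfn, with a ratio of 5.85. Whether recurring sequence took part in the missing footprints was not tested.

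**Figure D4:**
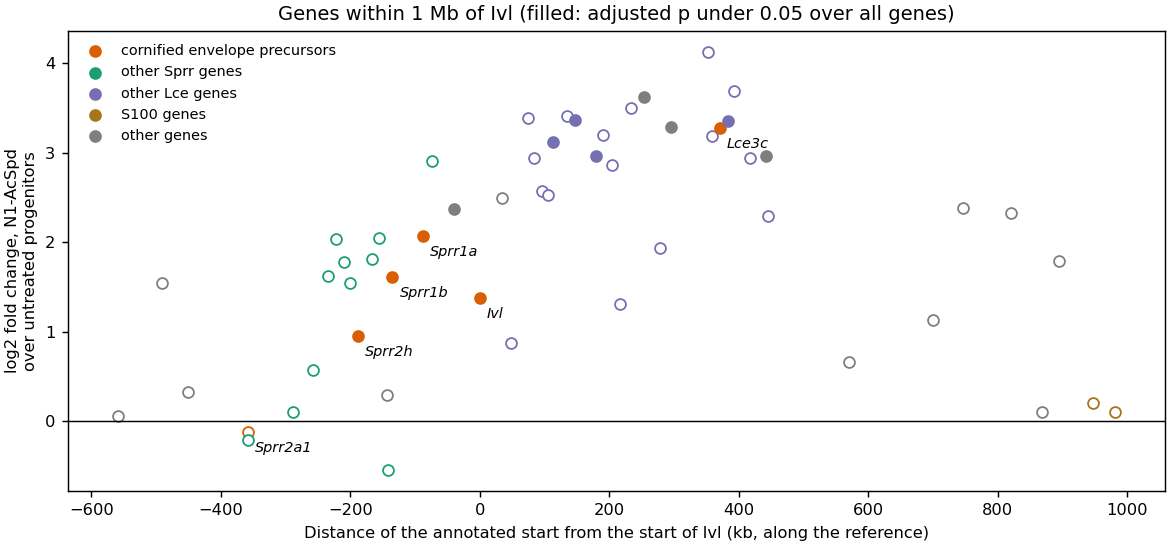
Log2 fold change of N1-AcSpd over untreated progenitors in RNA-seq (vertical axis) against the distance of the annotated start from the start of Ivl in kb (horizontal axis) for 54 genes, with filled points where the adjusted p was under 0.05. 51 genes lie above 0 and the Lce genes have a median of 3.04.

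Within 1 Mb of the start of Ivl, 54 genes were tested. With N1-AcSpd in progenitors 13 passed as higher and 0 as lower in edgeR, and with the replicate block 4 passed, or 30 with the exchanged numbers. Of all 14205 genes tested, 31 passed as higher, 6 with the replicate block and 242 with the exchanged numbers. Fold changes above 0, passed or not, were found in 51 of the 54, or 94.4%, against 47.2% of all genes tested. Leaving out the 6 members on chromosome 3, 8 of 48 passed, 1 with the replicate block and 25 with the exchanged numbers, and the median log2 fold change was 2.31. Sprr2a1 starts at -358 kb, on the side away from the Lce genes, and its copies Sprr2a2 and Sprr2a3 gave log2 fold changes of -0.21 (SE 0.161) and 0.10 (SE 0.121).

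The other families of the cluster were taken from fixed lists. Of 20 other Lce genes 4 rose in edgeR, 0 with the replicate block and 15 with the exchanged numbers, against 31, 6 and 242 of all 14205 genes. An unadjusted p under 0.05 was found in 18 of the 20, and the median was 3.04. In untreated progenitors their mean levels were low, from 0 CPM (such as Lce1j) to 0.804 CPM (Lce3d). The share of coding words in at most 1 place ran from 0% (Lce3f) to 100% (Lce6a), with 4.87% in Lce3d and 12.7% in Lce3c. How reads shared by Lce genes were assigned is not given in the sources used here. The Lce genes, here and among the genes near Ivl, may therefore not be independent. Lce3d rose 10.2-fold (log2 3.35, SE 0.447, adjusted p = 0.0342 from edgeR, 0.076 with the replicate block), from 0.804 ± 0.203 to 8.88 ± 0.614 CPM (SD, n = 2). Of 11 other Sprr genes 0 passed in edgeR, 7 had an unadjusted p under 0.05 and the median was 1.62.

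**Figure D5:**
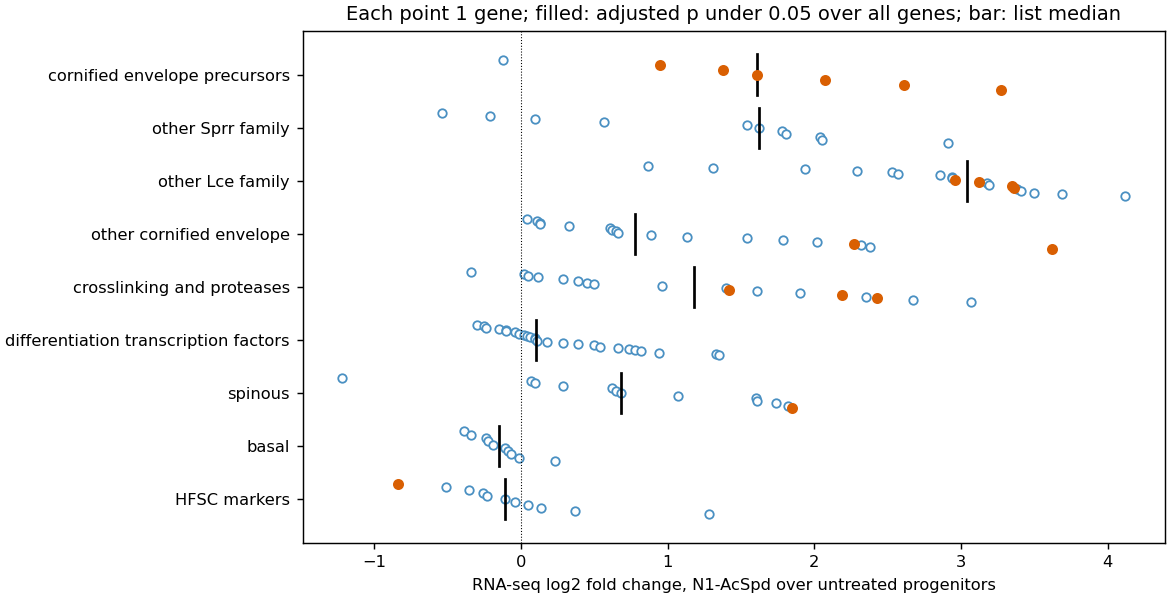
Log2 fold change of N1-AcSpd over untreated progenitors in RNA-seq (horizontal axis) for each gene of the lists (rows), with orange points where the adjusted p was under 0.05 and a black bar at the list median. The medians fall from 3.04 in the Lce family and 1.61 in the 7 genes to -0.15 in the basal list.

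Genes that build or process the envelope moved in part with the 7. Of 18 further envelope genes 2 rose, with a median log2 fold change of 0.77: Kprp, a keratinocyte proline-rich protein (12.3-fold, log2 3.62, SE 0.42, adjusted p = 0.0257 from edgeR), and Cdsn, the adhesion protein corneodesmosin (4.83-fold, log2 2.27, SE 0.279, adjusted p = 0.0342, or 0.0596 with the replicate block). Of 18 crosslinking enzymes and proteases 3 rose, with a median of 1.18, and all 3 are kallikreins, proteases that degrade corneodesmosomes. Klk7 rose 4.55-fold, Klk5 5.39-fold and Klk8 2.67-fold (adjusted p = 0.0342, 0.0342 and 0.0461 from edgeR, and 0.0596, 0.076 and 0.11 with the replicate block).

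Of 13 spinous genes 1 rose, the desmosomal cadherin Dsc1 (3.61-fold, log2 1.85, SE 0.259, adjusted p = 0.045 from edgeR, or 0.11 with the replicate block), with a list median of 0.68. Of 26 transcription factors of epidermal differentiation 0 passed in edgeR, 5 had an unadjusted p under 0.05 and the median was 0.11. Of 10 basal genes 0 passed in edgeR, 1 had an unadjusted p under 0.05 and the median was -0.15.

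In treated cells the same lists were lower in HFSCs in part. Of the other Sprr genes Sprr2d (log2 -1.71, SE 0.272, adjusted p = 0.0356 from edgeR) and Sprr2j-ps (log2 -2.70, SE 0.515, adjusted p = 0.0431) passed, as did Lce3d (log2 -2.47, SE 0.41, adjusted p = 0.0407). With the replicate block these 3 had adjusted p = 0.0645, 0.0839 and 0.0825 in edgeR. Cdsn, Kprp, Klk5, Klk7, Klk8, Dsc1 and the calmodulin-like Calm4 were also lower, by 3.18-fold (Klk8) to 5.66-fold (Klk5), and of these Kprp and Calm4 had adjusted p = 0.051 each with the replicate block in edgeR.

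Across the 8 RNA-seq libraries the centred log2 levels of the 7 genes gave a mean profile of 1.43 and 1.55 in treated progenitors, -0.03 and 0.01 in treated HFSCs, -0.32 and -0.09 in untreated progenitors and -1.53 and -1.01 in untreated HFSCs. Pearson's r of each gene with the mean of the other 6 lay between 0.955 and 0.994 for 6 genes and was 0.392 for Sprr2a1, as a description over 8 libraries that share groups and donors. Among 1602 other genes, each with 50 or more counts on average and a log2 range of 1 or more, the 8 most like the mean profile were 2310046K23Rik (0.995), Alox12b (0.992), Cdsn (0.991), Klk5 (0.990), Lce3d (0.990), Nkpd1 (0.990), Klk7 (0.986) and Crct1 (0.984). Alox12b, a lipoxygenase of the barrier lipid envelope, stood at 0.778 to 3.14 CPM in the untreated and 2.5 to 14.3 CPM in the treated libraries.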

How the data were processed

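RNA-seq and Ribo-seq counts were analysed for 16 libraries. The authors removed rRNA and tRNA reads with bowtie 1.2.3, aligned the rest with STAR 2.7.3a to GRCm38.p5 and deposited unscaled read counts per transcript (featureCounts, version and handling of multi-mapping reads not given in the sources used here). The 4 deposited tables of differential translation were not used for values. The members and lists were chosen with earlier results of these data known. For each of 22579 genes the transcript with the most Ribo-seq counts was kept, and 0 columns were left out. CPM values were computed here.

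Each assay was fitted with edgeR 4.0.16 in R 4.3.3 over its 4 groups: TMM, a mean of at least 1 count, a quasi-likelihood test, Benjamini-Hochberg adjustment, threshold 0.05, and prior count 2 for log2 fold changes. Translational efficiency was the interaction of assay and group. Scripts were tested on simulated data. The labels name a donor mouse for each replicate number, so the numbers pair the samples; the donor differences correlated between 0.35 and 0.65 among 3 RNA-seq groups but from -0.61 to -0.39 with N1-AcSpd HFSCs (Ribo-seq 0.02 to 0.11). No replicate pair was alike within sampling noise (chi-square per degree of freedom of at least 1.99).

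The genes named are the 7 members in every comparison, at most the 3 smallest p-values among those past the threshold per list and comparison, and the 8 genes most like the members' mean profile. Krt1 and the copies of Sprr2a1 were chosen after their values were seen. Alternatives were DESeq2 1.42.0, the RLE scaling, a minimum mean of 10 counts or no minimum, sums over transcripts, prior count 0.5, only the compared libraries, the replicate block and each donor left out. The exchanged block and each library left out were added after seeing the data. PCR amplification was used with no molecular identifiers.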

Additional observations from a re-analysis of the deposited data

How the results depend on the processing

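The median log2 fold changes of the 7 genes in RNA-seq kept their direction under each alternative run, except the interaction, which reached 0.00 without untreated HFSC replicate 2. The number that passed depended on the setting. For untreated cell types it was 5 with DESeq2, 0 with summed transcripts, 4 without a minimum and 0 with only the compared libraries. It was 0 with the replicate block and 6 with the exchanged block. With the exchanged block it was 6 in each comparison of cell types and of treatment. That setting also called more of all 14205 genes: 751 and 903 between untreated and treated cell types, and 446 and 269 for treatment in progenitors and HFSCs. The main fit called 21, 106, 34 and 0, in the same order. For treated cell types 3 of the 7 genes passed with only the compared libraries. For treatment in progenitors 1 passed with summed transcripts and 3 with the replicate block. For treatment in HFSCs 6 passed with DESeq2, 5 without a minimum, 1 with only the compared libraries and 6 with the exchanged block. In each of these comparisons the number also changed when a library was left out. Leaving out a donor gave effect sizes with no test. The replicate block changed no other call printed in the text than those given with the results. The exchanged block swaps the replicate numbers of N1-AcSpd HFSCs in RNA-seq, whose donor differences ran against the other groups, and was chosen after seeing the data.

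Leaving out a library or donor gave median log2 fold changes in RNA-seq of -1.17 to -0.82 (untreated cell types), -1.45 to -1.08 (treated cell types) and -0.75 to 0.00 (interaction). In Ribo-seq these were -2.04 to 0.27 (untreated cell types), -2.29 to -1.15 (treated cell types), -1.94 to -0.48 (their mean), 0.57 to 2.77 (treatment in progenitors), 0.00 to 1.82 (in HFSCs), 0.33 to 2.12 (their mean) and -1.76 to 0.33 (interaction). DESeq2 gave -1.43 for untreated cell types, -1.75 for their mean over treatments and -0.56 for the interaction, and a prior count of 0.5 gave -1.17 and -1.53 for the first and second. In efficiency, leaving out a donor gave -3.02 to -0.45 and -1.0 to -0.17 (untreated and treated cell types), -1.86 to -0.06 (their mean), -1.45 to 4.43 (treatment in progenitors), -1.08 to 6.78 (in HFSCs) and -0.99 to 5.17 (their mean); without replicate 2 several groups have 0 footprints. A minimum of 10 counts left too few of the 7 genes for a Ribo-seq or efficiency median.

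Single genes changed sign when a library or donor was left out. In RNA-seq these were Sprr2a1 with treatment in progenitors (-0.31 to 0.12) and in HFSCs (-0.20 to 0.11), and in the interaction Sprr1a (-0.97 to 0.11), Sprr1b (-0.75 to 0.19), Sprr2h (-0.25 to 0.13), Sprr2a1 (-0.19 to 0.31) and Cnfn (-1.59 to 0.09). For treatment averaged over cell types they were Sprr1b in Ribo-seq (-0.91 to 2.88), and in efficiency Ivl (-0.62 to 4.0), Sprr1a (-1.36 to 3.03), Sprr1b (-5.47 to 8.37) and Cnfn (0.05 to 6.34, and 0.10 with DESeq2). Cnfn between cell types in efficiency gave 0.13 to 0.31 without a donor. The cause was not tested. Depth limits the Ribo-seq results, and with 2 donors each library carries much of the spread.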
